A study of Schizosaccharomyces pombe with 9 samples.

Results

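The expression of 8 genes that make, export or degrade the mating pheromones of *Schizosaccharomyces pombe*, out of 6988 genes in the count table, was followed across 3 strains. The genes were taken from the table by systematic ID. They encode the precursors of the M-factor pheromone (*mfm1* SPAPB8E5.05, *mfm2* SPAC513.03 and *mfm3* SPBPJ4664.03), a maturation enzyme and the exporter of M-factor (*mam4* SPAC10F6.12c and *mam1* SPBC25B2.02c), a mating-type regulator (*map1* SPAC11E3.06) and proteases that act in the pheromone system (*sxa1* SPAC26A3.01 and *sxa2* SPAC1296.03c). All 8 passed the filter on low counts, as did 6257 genes in all.

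Poly(A)+ RNA was sequenced from log-phase cultures in YES medium at 30 °C, with 3 biological replicates per strain: *ecl123*Δ, in which the ORFs of *ecl1*, *ecl2* and *ecl3* were replaced by *hygMX*, *natMX* and *kanMX*; *ecl3*Δ, in which *kanMX* replaced *ecl3* alone; and WT. Every strain was a haploid of the h- mating type with the *leu1-32*, *ura4-D18* and *his3-D1* alleles plus an *ade6* allele (*ade6-m216* or *ade6-m210*). The single mutants came from sporulated diploid transformants and the triple mutant from serial crosses of them, so each genotype was represented by 1 strain and differences between isolates of a genotype were not sampled. The comparisons ask how loss of Ecl3, alone or together with Ecl1 and Ecl2, which are small proteins that extend chronological lifespan when overproduced, bears on these mRNAs in growing cells.

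Fission yeast mates between cells of opposite type. An h- cell, also called M, secretes M-factor, a short peptide that carries a farnesyl group and a methyl ester at its C-terminal cysteine, and senses P-factor from the P cell through the receptor Mam2. Expression of the pheromone genes depends on the HMG-box transcription factor Ste11 and is high in nitrogen-starved cells, while the cells sampled here were growing in rich medium.

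*mfm1*, *mfm2* and *mfm3* code for the same mature M-factor. The coding DNA from RefSeq (ASM294v3) is shown for them because reads must be told apart between near-identical copies. Capitals mark the last 4 codons before the stop codon, which encode the CaaX box that is farnesylated.
mfm1: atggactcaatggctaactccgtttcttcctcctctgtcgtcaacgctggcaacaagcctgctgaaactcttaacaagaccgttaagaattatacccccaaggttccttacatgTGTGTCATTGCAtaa
mfm2: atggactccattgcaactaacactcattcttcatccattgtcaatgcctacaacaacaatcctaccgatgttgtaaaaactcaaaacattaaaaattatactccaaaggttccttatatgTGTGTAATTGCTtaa
mfm3: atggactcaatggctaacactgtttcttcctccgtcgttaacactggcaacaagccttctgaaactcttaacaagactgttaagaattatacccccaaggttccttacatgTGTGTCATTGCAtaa
The coding sequences spanned 129, 135 and 126 bases in *mfm1*, *mfm2* and *mfm3*. Of the last 48 coding bases, 47 (97.9%) were identical between *mfm1* and *mfm3*, 40 (83.3%) between *mfm1* and *mfm2*, and 39 (81.2%) between *mfm2* and *mfm3*. The longest run shared by *mfm1* and *mfm3* was 48 bases, and that shared by either with *mfm2* was 11 bases. The reads were 51 bases long, and none of the 51-base windows in the exons of the 8 genes occurred elsewhere in the genome. Of the windows of *mfm1*, 20 (5.95%) lay within 2 mismatches of *mfm3*, and the same number made up 11.8% of the windows of *mfm3*.

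Ste11 binds a motif called the TR box, for which the letters TTCTTTGTT were searched on both strands from 250 bases before to 50 bases after the annotated start of each gene. Of 5106 coding genes, 102 (2.00%) held a match, as did 4 of the 8 pheromone genes. The matches are shown with 10 bases on each side, with the motif, or its reverse complement AACAAAGAA, in capitals.
mfm1, 75 bases before the start: gggtccgaccAACAAAGAAgtctcagttt
mfm3, 160 bases before the start: aggcccaaccAACAAAGAAgtctcagatt
mam4, 175 bases before the start: agtatttgaaTTCTTTGTTatatcgaggt
mam4, 63 bases before the start: gagtatgattTTCTTTGTTttacttccct
map1, 30 bases after the start: tacaatttgtAACAAAGAAacacacattt
The windows from *mfm1* and *mfm3* had the same base at 25 of 29 positions. No match to these letters lay in the window of *mfm2*, *mam1*, *sxa1* or *sxa2*.

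The libraries held between 23254907 and 34871124 counts. Reads at *ecl3* checked the label of WT against the mutants, but could not tell the mutants apart. Its counts were 0, 0 and 1 in *ecl123*Δ, 0 in each *ecl3*Δ library and 23, 15 and 42 in WT. At *ecl1* and *ecl2*, whose annotated mRNAs run past the replaced ORFs, normalized counts in *ecl123*Δ were 2749.7, 3024 and 3437 (*ecl1*) and 2171, 2007 and 2278 (*ecl2*), against 506, 479 and 392 and 1708, 1496 and 1465 in WT, so they did not check the deletions. The *ecl3*Δ libraries had 618, 457 and 539 normalized counts at *ecl1*, so the *ecl123*Δ libraries stood apart from both other strains at this gene. No library had a count at *ura4*, while *his3* had normalized counts of 284 to 637 across the 9 libraries, WT included. Reads at *his3* in every library go against the *his3-D1* genotype given for all strains if that allele is a complete deletion; its extent is not given in the sources used here. Of the 7 markers of M cells, *mat1-Mc* had a count of 0 in every library; all of its 51-base windows are repeated at another mating-type locus, so this gene could not be measured. The other 6 M markers were detected: *mfm1*, *mfm2*, *mfm3* and *mam1*, which are among the 8 genes described here, and *mam2* and *mam3*. Their summed normalized counts, which restate the values of those 4 genes and are no separate check of the cell type, ranged from 2792 to 3381 in *ecl123*Δ, 4237 to 7554 in *ecl3*Δ and 6565 to 6983 in WT. *mam3*, a cell adhesion gene of M cells, had 645, 639 and 990 normalized counts in *ecl123*Δ, 824, 878 and 743 in *ecl3*Δ, and 945, 841 and 877 in WT, with overlapping groups. Of the 4 markers of P cells, the 3 in the table summed to 711 to 1010 in *ecl123*Δ, 878 to 979 in *ecl3*Δ and 766 to 915 in WT. In bulk RNA, fewer cells that express a gene cannot be told apart from less of its mRNA per cell.

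In *ecl123*Δ cells the mRNAs of *mfm1*, *mfm2*, *mam1* and *map1* fell by at least 2-fold against WT, those of *mfm3*, *mam4* and *sxa1* were lower in every library but did not pass the test, and that of *sxa2* did not differ detectably. To be called, a gene had to pass an edgeR adjusted p of 0.05, change 2-fold or more, and average 100 or more normalized counts in whichever strain was higher. Thus 4 of the 8 genes were called lower and 0 higher, where 0.447% of all 6257 genes were called lower. The adjusted p alone gave the same 4 genes, where 0.575% of all genes were lower by that rule. The study singled out these 4 genes as lower in the same *ecl123*Δ libraries and higher in an earlier microarray study of cells with *ecl* genes on plasmids. The counts are therefore not independent evidence of direction. In 7 of the 8 every *ecl123*Δ library lay below every WT library, as for 13.6% of all genes. The median log2 fold change of the 8 was -0.93, beside 0.00 over all genes tested. The plot of normalized counts by library shows these separations.

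**Figure D1:**
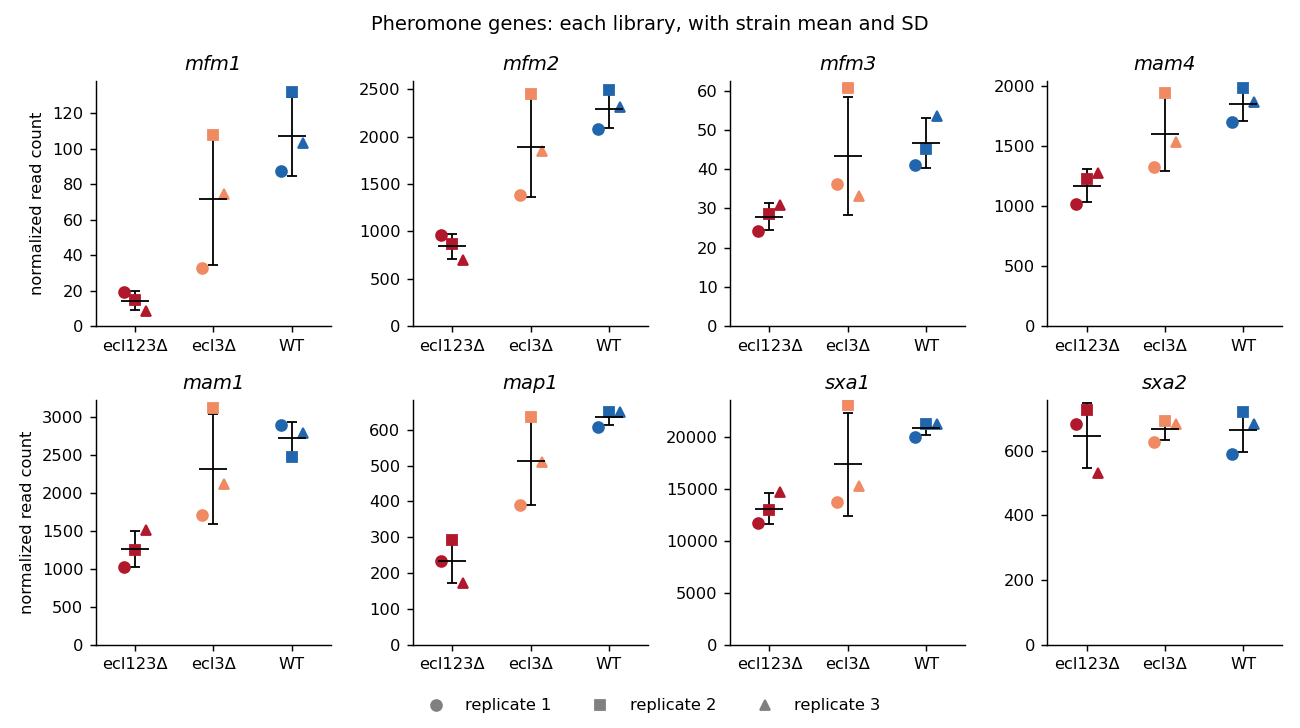
Normalized read counts (y axis, from 0) of the 8 pheromone genes in the 3 libraries of *ecl123*Δ, *ecl3*Δ and WT (x axis); symbols mark replicates, and bars show the mean and SD of 3 libraries. The *ecl123*Δ points lie below all WT points in 7 panels and overlap them for *sxa2*, and in each panel the highest *ecl3*Δ point is replicate 2.

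Of the 8 genes, *mfm1* had the largest change; it is one of the M-factor precursor genes. Its normalized counts were 19.4, 14.9 and 8.70 in *ecl123*Δ, 32.9, 108 and 74.3 in *ecl3*Δ, and 87.5, 132 and 103 in WT. The *ecl123*Δ libraries rested on 20, 13 and 9 reads, all were below the lowest *ecl3*Δ and WT library, and the log2 fold change in *ecl123*Δ over WT was -2.90 (SE 0.47, edgeR adjusted p = 0.0340), or 7.45-fold lower. The 95% interval of this fold change ran from -3.95 to -1.84 on the log2 scale.

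*mfm2* supplied most of the M-factor precursor mRNA. It had normalized counts of 958, 867 and 701 in *ecl123*Δ, 1384, 2449 and 1846 in *ecl3*Δ, and 2080.5, 2489.5 and 2311 in WT. The *ecl123*Δ and WT libraries were well separated, with a log2 fold change of -1.45 (SE 0.19, edgeR adjusted p = 0.0324) that placed *mfm2* at rank 5 by p among all genes tested.

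*mfm3* was the weakest of the 3 precursor genes in each WT library, while *mfm1* was the weakest in each *ecl123*Δ library. Its normalized counts were 24.2, 28.6 and 30.9 in *ecl123*Δ, 36.2, 60.6 and 33.1 in *ecl3*Δ, and 41.1, 45.1 and 53.6 in WT. All *ecl123*Δ libraries lay below the others, but the log2 fold change of -0.74 (SE 0.30) did not pass the test (edgeR adjusted p = 0.213). With a mean of 46.6 ± 6.42 in WT (SD, n = 3), this gene could not have reached the minimum mean of 100 in any case.

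As shares of the reads over the 3 precursor genes, *mfm1* made up 1.93%, 1.64% and 1.17% in *ecl123*Δ, 2.26%, 4.12% and 3.80% in *ecl3*Δ, and 3.96%, 4.94% and 4.19% in WT. The exact Clopper-Pearson 95% intervals reached at most 2.97% in an *ecl123*Δ library and went down to 3.16% in a WT library; such intervals cover counting error only. *mfm3* held 2.42%, 3.14% and 4.17% in *ecl123*Δ, 2.49%, 2.32% and 1.70% in *ecl3*Δ, and 1.86%, 1.69% and 2.17% in WT. In *ecl123*Δ the order of the minor precursor genes was thus turned round, with *mfm3* above *mfm1* in each library and the reverse in each WT library. In *ecl123*Δ replicate 1 this rested on 25 against 20 reads, with overlapping exact intervals (1.57% to 3.55% for *mfm3*, 1.19% to 2.97% for *mfm1*). Replicate 2 had 25 against 13 reads, and its intervals overlapped too (2.05% to 4.61% for *mfm3*, 0.873% to 2.78% for *mfm1*). Those of replicate 3 did not overlap. The shares were not scaled by exon length, but counts per kilobase had the same order in each of these libraries. *mfm2* ranged from 94.7% to 95.6% in *ecl123*Δ, 93.6% to 95.2% in *ecl3*Δ and 93.4% to 94.2% in WT. The shares are given as a description, with no test.

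**Figure D2:**
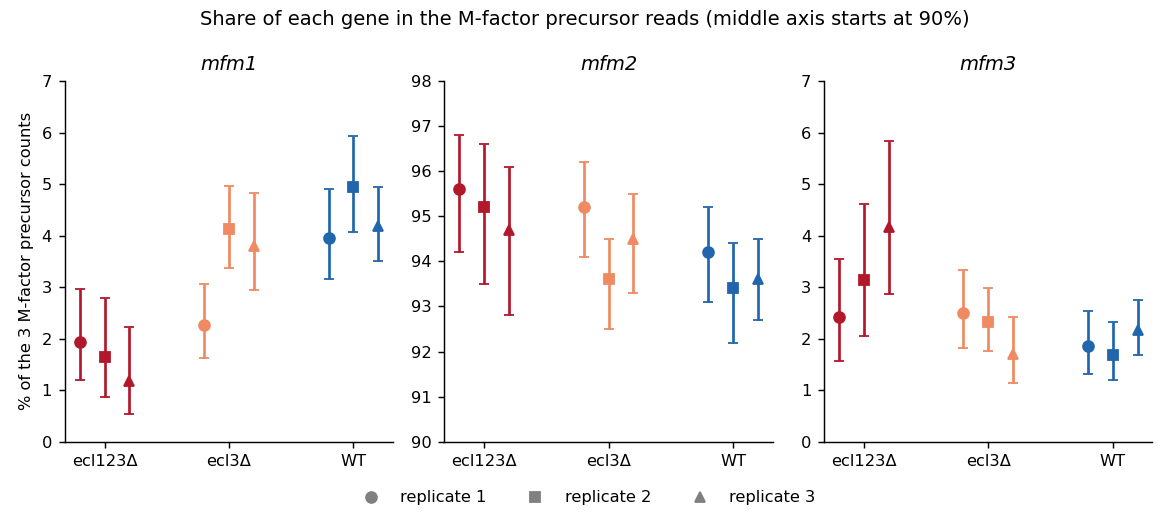
Share of *mfm1*, *mfm2* and *mfm3* in the summed reads of these genes (y axis, percent; the middle axis starts at 90%), by strain, with 1 point per library and exact 95% binomial intervals. *mfm1* lies between 1.17% and 1.93% in *ecl123*Δ and between 3.96% and 4.94% in WT, while *mfm3* is at 2.42% to 4.17% in *ecl123*Δ and at 1.69% to 2.17% in WT.

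Maturation and export were represented by *mam4*, the methyltransferase that methylates the farnesylated cysteine, and *mam1*, the ABC transporter that carries M-factor out of the cell. *mam1* had normalized counts of 1029, 1244 and 1512 in *ecl123*Δ, 1715, 3130.0 and 2114 in *ecl3*Δ, and 2898, 2476 and 2790.2 in WT. Its *ecl123*Δ libraries were all below the rest, at a log2 fold change of -1.11 against WT (SE 0.21, edgeR adjusted p = 0.0423). *mam4* had 1016, 1220 and 1272 in *ecl123*Δ, 1326.5, 1941.5 and 1534.5 in *ecl3*Δ, and 1697, 1981 and 1864 in WT. These groups did not overlap between *ecl123*Δ and WT either, yet the log2 fold change of -0.66 (SE 0.14) was just outside the limit (edgeR adjusted p = 0.0592).

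*map1* encodes a MADS-box transcription factor that acts with the P mating-type protein to switch on genes of P cells. It had normalized counts of 233, 292 and 172 in *ecl123*Δ, 391, 635 and 511 in *ecl3*Δ, and 608, 650 and 650 in WT. The WT libraries were close together (coefficient of variation 3.76%) and all above the *ecl123*Δ libraries, with a log2 fold change of -1.45 (SE 0.21, edgeR adjusted p = 0.0336).

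Of the proteases, *sxa1* encodes an aspartyl protease and *sxa2* a secreted carboxypeptidase with which M cells degrade P-factor. *sxa1* had normalized counts of 11649.5, 12904.5 and 14641 in *ecl123*Δ, 13684, 22983 and 15270.5 in *ecl3*Δ, and 19996, 21168 and 21214 in WT. Its *ecl123*Δ libraries were below all WT libraries but overlapped those of *ecl3*Δ; the log2 fold change against WT was -0.67 (SE 0.17, edgeR adjusted p = 0.0906). *sxa2* had 681, 725 and 532 in *ecl123*Δ, 627, 690 and 681 in *ecl3*Δ, and 588, 718 and 683 in WT. The *sxa2* groups overlapped throughout. The 95% interval of its fold change in *ecl123*Δ over WT ran from 0.790 to 1.20, so a 2-fold change lay outside it.

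In *ecl3*Δ against WT none of the 8 genes was called, as for all genes tested (0.00% called lower), and each of the 8 had an edgeR adjusted p of 1.00. All 8 overlapped between the strains, where 5.50% of all genes had every *ecl3*Δ library below every WT library. The log2 fold changes ran from -0.59 (SE 0.40) for *mfm1* to 0.01 (SE 0.14) for *sxa2*, with a median of -0.25, and 0 of the 8 reached an unadjusted p under 0.05, by edgeR, beside 48 lower and 53 higher among all genes. DESeq2 also called 0.

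The overlap rested on 1 library. Replicate 2 of *ecl3*Δ was the highest of its strain for all 8 genes, and lay above every WT library for *mfm3*, *mam1* and *sxa1*. Replicates 1 and 3 of *ecl3*Δ each lay below every WT library for the same 7 genes, with *sxa2* as the exception. *ste11* stood the same way, with normalized counts of 976, 3118 and 993 in *ecl3*Δ and 1894 to 2537 in WT. How many of all genes lay outside the WT range in each of these libraries was not counted. Whether the pattern was particular to the 8 is therefore not known. Without *ecl3*Δ replicate 2 alone, none of the 8 passed the adjusted p in *ecl3*Δ against WT: the log2 fold change was -0.51 for *mfm2* (edgeR adjusted p = 0.253), -0.51 for *mam1* (adjusted p = 0.253) and -0.52 for *sxa1* (adjusted p = 0.0962), and 13 of all genes tested were called lower. With *ecl123*Δ replicate 3 left out as well, an alternative chosen after seeing the data, the fold changes of these genes were the same but the adjusted p were smaller: *mfm2* (log2 fold change -0.51, edgeR adjusted p = 0.0489), *mam1* (-0.51, adjusted p = 0.0338) and *sxa1* (-0.52, adjusted p = 0.00924) passed. None of the 8 was called at 2-fold in that fit, while 52 of all genes tested were called lower. How many of all genes passed the adjusted p alone in that fit was not counted. Whether these passes were particular to the 8 is therefore not known. *mfm1* then had a log2 fold change of -1.03 (edgeR adjusted p = 0.152). In *ecl123*Δ against WT the same 4 genes were called without these libraries.

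Within *ecl123*Δ the genes did not vary together. Replicate 3 was the lowest of its strain for *mfm1*, *mfm2*, *map1* and *sxa2* and the highest for *mfm3*, *mam4*, *mam1* and *sxa1*. Replicate 1 was the lowest for *mfm3*, *mam4*, *mam1* and *sxa1*. The plot of centred profiles shows this crossing in *ecl123*Δ and the shared peak at replicate 2 of *ecl3*Δ.

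**Figure D3:**
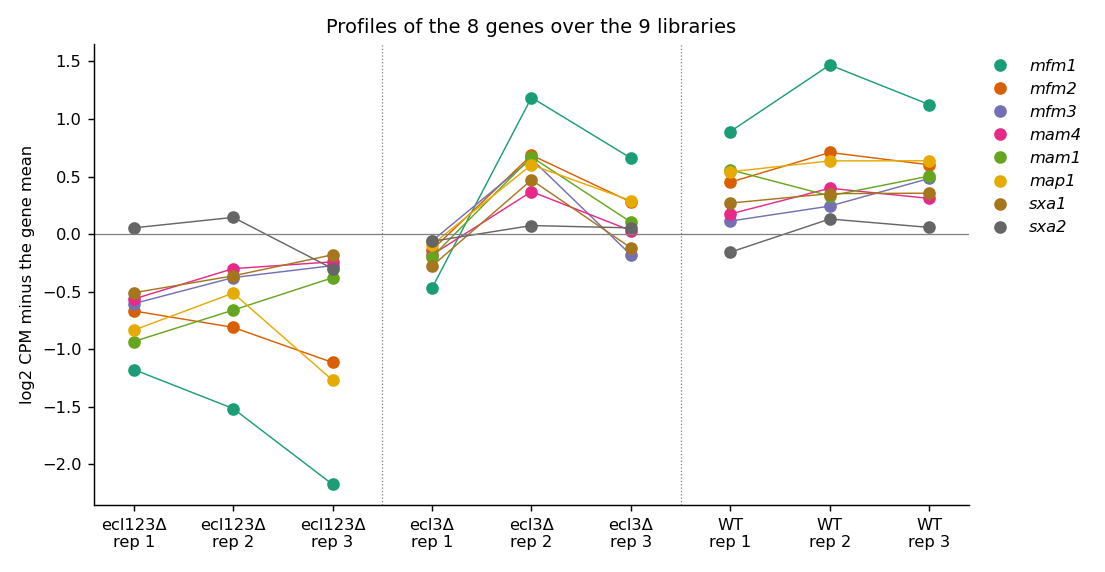
Profiles of the 8 genes over the 9 libraries: log2 CPM minus the mean of each gene (y axis), with libraries ordered by strain on the x axis and lines joining libraries of 1 strain only as a guide. In *ecl3*Δ all 8 genes are highest in replicate 2, while in *ecl123*Δ replicate 3 is highest for 4 genes and lowest for the other 4.

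The direct comparison of *ecl123*Δ with *ecl3*Δ called 0 of the 8 genes by edgeR (0.00% of all genes were called lower). At an unadjusted p under 0.05, 6 of the 8 were lower, beside 284 lower and 385 higher among all genes. DESeq2 called *mfm2* and *map1* among 18 of all genes called lower by that tool. By DESeq2, *mfm1* (log2 fold change -2.31, adjusted p = 0.000356) and *mam1* (-0.87, adjusted p = 0.00592) also passed the adjusted p. Neither was called: *mam1* changed less than 2-fold, and *mfm1* averaged 71.7 normalized counts in *ecl3*Δ, below the minimum mean. With that minimum, *mfm1* could not be called in this comparison by either tool. How many of all genes passed the adjusted p alone by DESeq2 was not counted. All *ecl123*Δ libraries were below all *ecl3*Δ libraries for 6 genes, the exceptions being *sxa1* and *sxa2*, where 4.22% of all genes were separated in this way. The log2 fold changes were -2.31 (SE 0.48, edgeR adjusted p = 0.140) for *mfm1*, -1.17 (SE 0.19, adjusted p = 0.0738) for *mfm2*, -1.14 (SE 0.22, adjusted p = 0.131) for *map1* and -0.88 (SE 0.21, adjusted p = 0.164) for *mam1*. Those of *mfm3*, *mam4*, *sxa1* and *sxa2* were -0.63, -0.45, -0.41 and -0.04. A difference between the mutants was therefore not shown for any of these genes by the edgeR test. Comparisons that share WT or mutant libraries are not independent of each other.

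**Figure D4:**
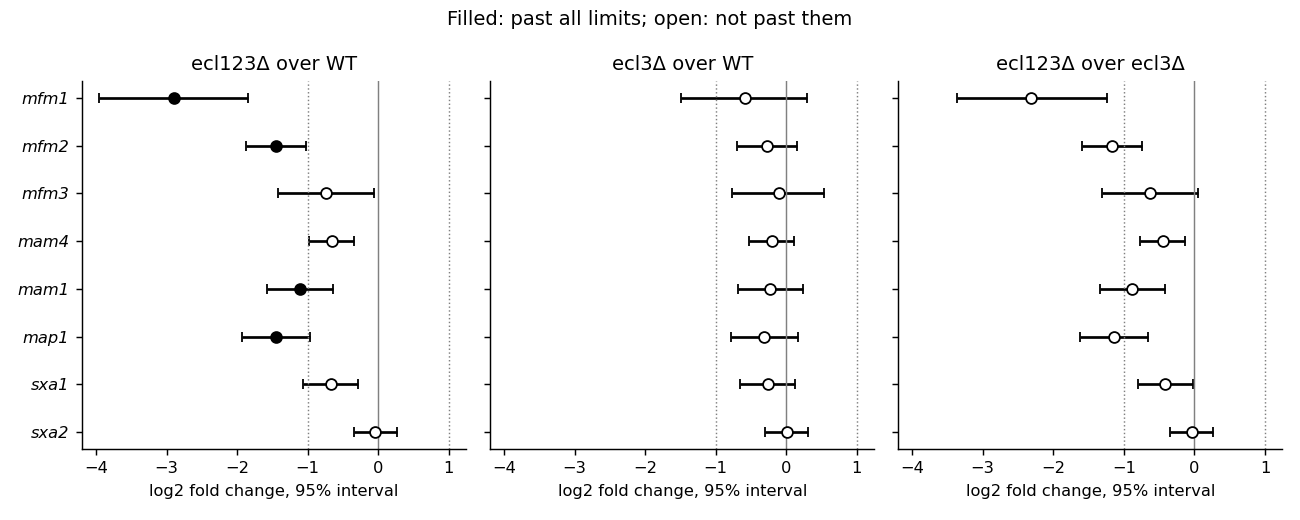
Log2 fold changes (x axis) with 95% intervals from the edgeR fit of the 8 genes (y axis) in *ecl123*Δ over WT, *ecl3*Δ over WT and *ecl123*Δ over *ecl3*Δ; filled points passed the adjusted p, the 2-fold limit (dotted lines) and the minimum mean. The 4 filled points, *mfm1* at -2.90, *mfm2* and *map1* at -1.45 and *mam1* at -1.11, are all in *ecl123*Δ over WT.

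The calls in *ecl123*Δ against WT depended on single libraries; the adjusted p of the 4 genes lay between 0.0324 and 0.0423. None of the 8 was called when any 1 of the WT libraries, replicate 3 of *ecl3*Δ or replicate 1 of *ecl123*Δ was omitted, and omitting *ecl123*Δ replicate 2 left 3. The loss was not particular to these genes: the 5 fits that called none of the 8 called 0 or 1 of all genes tested lower, against 28 with every library included. The log2 fold changes moved less: over all 17 alternatives that of *mfm1* stayed between -3.19 and -2.63, *mfm2* between -1.54 and -1.33, *map1* between -1.65 and -1.28 and *mam1* between -1.27 and -0.98. The adjusted p of *mfm1* ranged from 3.68e-07 with DESeq2 to 0.169, and passed 0.05 in 12 of the 17. For *mam4* 6 of the 17 passed, for *sxa1* 4, and for *mfm3* and *sxa2* 0.

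**Figure D5:**
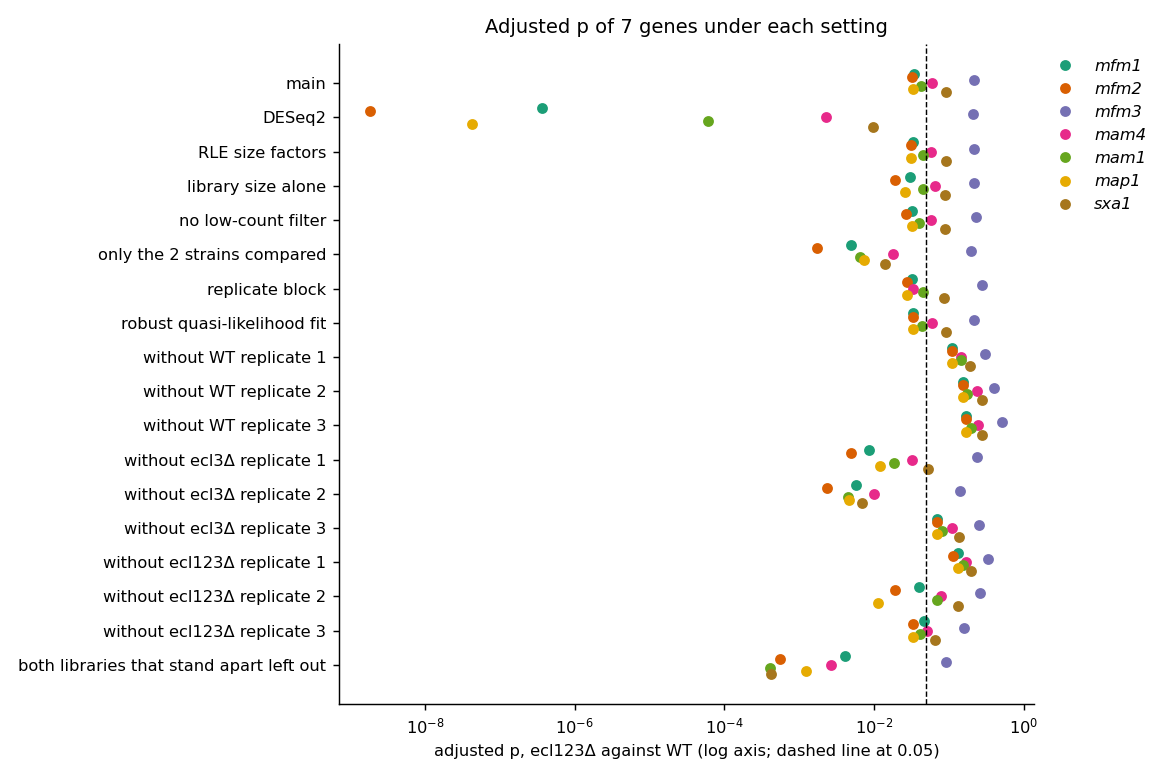
Adjusted p in *ecl123*Δ against WT (x axis, log scale) of the 7 genes other than *sxa2* under each setting of the analysis (y axis), with a dashed line at 0.05. *mfm1*, *mfm2*, *mam1* and *map1* lie left of the line in the analysis as reported and right of it without any 1 of the WT libraries.

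Per kilobase of exon, which allows levels to be compared between genes, *sxa1* was the most abundant mRNA of the 8, at 6046 ± 695 normalized counts per kilobase in *ecl123*Δ, 8011 ± 2302 in *ecl3*Δ and 9622 ± 320 in WT (SD, n = 3). *mfm2* followed, at 1884 ± 291 in *ecl123*Δ, 4235 ± 1195 in *ecl3*Δ and 5131 ± 459 in WT. Below these lay *mam4*, at 992 ± 115 in *ecl123*Δ, 1359 ± 266 in *ecl3*Δ and 1568 ± 121 in WT, and *mam1*, at 309 ± 59.3 in *ecl123*Δ, 568 ± 179 in *ecl3*Δ and 667 ± 53.7 in WT. The level of *map1* was 137 ± 35.5 in *ecl123*Δ, 302 ± 71.8 in *ecl3*Δ and 376 ± 14.1 in WT. The remaining genes were the least abundant in WT. *sxa2* was at 289 ± 45.2 in *ecl123*Δ, 298 ± 15.2 in *ecl3*Δ and 297 ± 30.1 in WT, *mfm1* at 32.8 ± 12.3 in *ecl123*Δ, 164 ± 86.1 in *ecl3*Δ and 247 ± 51.3 in WT, and *mfm3* at 103 ± 12.6 in *ecl123*Δ, 160 ± 55.8 in *ecl3*Δ and 173 ± 23.8 in WT. The libraries of *sxa2* and *mfm1* overlapped in WT, and in *ecl123*Δ so did those of *mam1* and *sxa2*, and of *map1* and *mfm3*. *mfm1* had the lowest level of the 8 in *ecl123*Δ.

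In the annotation, *mfm3*, *mam1*, *map1* and *sxa2* overlap a gene on the opposite strand. The libraries kept the strand, but the strand setting of the counting is not given in the sources used here. The partner of *mam1*, *hbs1*, had a log2 fold change of 0.57 in *ecl123*Δ over WT (edgeR adjusted p = 0.0547), opposite in sign to that of *mam1*. SPNCRNA.1381 (*mfm3*), SPNCRNA.1067 (*map1*) and *cox4* (*sxa2*) had log2 fold changes of 0.09, -0.40 and -0.37, with edgeR adjusted p of 0.709, 0.469 and 0.142. In WT the partners SPNCRNA.1381 and *cox4* averaged 813 and 7299 normalized counts, against 46.6 for *mfm3* and 663 for *sxa2*. *hbs1* and SPNCRNA.1067 averaged 1674 and 119, below *mam1* at 2721 and *map1* at 636. The part of reads from the opposite strand in the values of these 4 genes was not tested.

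Among 30 other genes of pheromone production, reception and response, 26 could be tested. In *ecl123*Δ against WT 6 of the 26 were called lower and 0 higher, beside 28 lower and 18 higher among all 6257 genes. The median log2 fold change of the 26 was -0.23, beside 0.00 over all genes. Several of the 6 called genes were singled out by the study partly on these libraries, so the count is not independent evidence of direction. The 6 included *mam2*, the P-factor receptor (log2 fold change -2.44, SE 0.41, edgeR adjusted p = 0.0401), *ste11* (-2.06, SE 0.39, 0.0455) and the MAP kinase gene *spk1* (-1.90, SE 0.28, 0.0336). The others were *ste4*, an adaptor of the MAP kinase cascade (-1.28, SE 0.20, edgeR adjusted p = 0.0336), *rgs1*, a negative regulator of G-protein signalling (-1.18, SE 0.12, 0.00695), and *gpa1*, the Gα subunit (-1.09, SE 0.21, 0.0424). *byr1*, the MAP kinase kinase gene, passed the adjusted p without reaching 2-fold (-0.49, edgeR adjusted p = 0.0464). *ste11* had normalized counts of 531, 496 and 526 in *ecl123*Δ and 2537, 2060 and 1894 in WT, with no overlap. In *ecl3*Δ against WT 0 of the 26 genes were called. There 1 gene, *rgs1*, was lower at an unadjusted p under 0.05, beside 48 lower and 53 higher among all genes. In *ecl123*Δ against *ecl3*Δ 0 of the 26 were called. At that p 12 of them were lower and 0 higher, beside 284 lower and 385 higher among all genes. All of these tests used edgeR.

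The remaining steps of M-factor maturation did not pass the test in *ecl123*Δ against WT. The farnesyltransferase genes *cpp1* and *cwp1* had log2 fold changes of -0.22 and -0.50, and the CaaX protease genes *ste24* and *rce1* had 0.05 and -0.16. The fusion genes *fus1* and *prm1* were at 0.01 and -0.16. Of the P-cell genes, *map2*, which encodes the P-factor precursor, had normalized counts of 168, 210 and 168 in *ecl123*Δ and 156, 133 and 98.5 in WT, a log2 fold change of 0.50 (SE 0.22, edgeR adjusted p = 0.237). *map3*, the M-factor receptor gene, had 220, 330 and 320 in *ecl123*Δ and 267, 234 and 248 in WT, with overlapping groups. The M mating-type genes listed, *mat1-Mc*, *mat1-Mi*, *mat3-Mc* and *mat3-Mi*, lie in repeated sequence and had no count other than 1 read at *mat3-Mc* in *ecl123*Δ replicate 1.

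The genes with the most similar profiles were sought among 4993 coding genes by the root mean square difference of centred log2 CPM over the 9 libraries. Nearest to *mfm1* was *mam2* (0.40 log2 units), then *yhb1* (0.42), a flavohemoglobin gene, and *mug133* (0.47), against a median of 1.29 over all coding genes. Nearest to *mfm2* were *map1* (0.14), *ste4* (0.15) and SPAC922.09 (0.16), with a median of 0.68. *map1* had *mfm2* (0.14), *cnp3* (0.18), a centromere protein gene, and *ste4* (0.19). Nearest to *mam1* were *ste6* (0.11), the Ras exchange factor gene, *itr2* (0.11), an inositol transporter gene, and *gpa1* (0.12). *mfm3* had *dsd1* (0.12), *wtf9* (0.13) and *sxa1* (0.13), and *mam4* had *rcf2* (0.07), *dsd1* (0.07) and *gga21* (0.08). For *sxa1* the nearest were *inp53*, *rga5* and SPCC1020.13c, and for *sxa2* they were *erv1*, *mrp20* and *taf9*, each at 0.05. For *mfm1*, *mfm2*, *map1* and *mam1* the nearest profile was that of a gene of the 8 or of the pathway list. Of these, *mfm2* and *map1* were nearest to each other, and *itr2* was as near to *mam1* as *ste6*. The nearest to *mfm3* was outside both lists, as were the 3 nearest to *mam4*, *sxa1* or *sxa2*. The profiles hold the difference between strains, so genes with like fold changes lie near each other by construction. How often other genes have such neighbours was not tested. This likeness is a description over libraries that share a strain.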

How the data were processed

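Libraries of poly(A)+ RNA that keep the strand were made by the authors, who, per the labels, mapped the reads with HISAT2 2.1.0 to ASM294v2 and counted them per gene with HTSeq 0.10.0. The deposited table holds whole-number counts for 6988 genes in 9 libraries, not normalized. The authors' DESeq2 tables (fold changes and p values of each mutant against WT) were not used.

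Genes passing filterByExpr (6257) were scaled by TMM and compared by edgeR 4.0.16's quasi-likelihood test (limma 3.58.1, R 4.3.3) in 1 fit of all 9 libraries, with Benjamini-Hochberg adjustment over all genes. Profiles used log2 CPM with a prior count of 2. An exact permutation test of 3 against 3 cannot give a two-sided p under 0.1. Names, exon lengths and sequences came from RefSeq ASM294v3, which matched 6836 genes; its build differs from that of the counts, so no coordinates are given. The fits were tested on simulated data. Alternatives were DESeq2 1.42.0, other scalings, no filter, a robust fit, 2-strain fits, a replicate block, and each library left out. The 8 genes, the pathway list and the named genes (all 8; listed genes past the adjusted p, plus *ste11*, *mam2*, *map2*, *map3* and the mating-type genes; the 3 nearest profiles of each) were chosen with earlier results of these data known; other genes were named after their values were seen.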

Additional observations from a re-analysis of the deposited data

How the results depend on the processing

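The number of the 8 genes called in *ecl123*Δ against WT was 4 under each alternative other than leaving out 1 library, where it ranged from 0 to 4. Among all genes tested, 27 to 101 were called lower under the former alternatives, and 0 to 96 with 1 library left out. In *ecl3*Δ against WT it was 0 under every alternative. In *ecl123*Δ against *ecl3*Δ, where edgeR called 0, DESeq2 called 2, and leaving out 1 library gave 0 to 1. *mfm2* was called without *ecl3*Δ replicate 1, among 7 of all genes called lower. *map1* was called without *ecl123*Δ replicate 2, among 4 of all genes called lower. Of the other pathway genes, 6 were called in *ecl123*Δ against WT, and 0 to 8 with 1 library left out. The cause of these shifts was not tested.

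Log2 fold changes changed sign for *sxa2* and *mfm3* only, among the 8 genes and 3 comparisons. For *sxa2* in *ecl3*Δ against WT, the value was -0.01 with library size alone, between -0.07 and 0.07 with 1 library left out, and -0.02 without *ecl3*Δ replicate 2 and *ecl123*Δ replicate 3. In *ecl123*Δ against WT it was 0.03 without WT replicate 2, 0.08 without *ecl123*Δ replicate 3 and 0.08 without both libraries, within a range of -0.13 to 0.08, and in *ecl123*Δ against *ecl3*Δ 0.07 and 0.10, within -0.13 to 0.10. For *mfm3* in *ecl3*Δ against WT it was 0.01 without WT replicate 3 or *ecl3*Δ replicate 1 and 0.04 without *ecl3*Δ replicate 3, within -0.43 to 0.04. None of these values passed the test. With 1 library of the strain left out, the mean share of *mfm1* in the precursor reads was 1.40% to 1.78% in *ecl123*Δ. It was 3.03% to 3.96% in *ecl3*Δ and 4.07% to 4.56% in WT.

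With the replicate number as a block, the same 4 genes were called and *mam4* also passed the edgeR adjusted p (0.0327). Correlations of same-numbered libraries ranged from -0.18 to 0.22, with 3 of 9 over 0.1. No correlations of differently numbered libraries were set beside them, so they cannot decide whether the numbers pair the libraries. Depth limits *mfm1* and *mfm3* most, with as few as 9 reads in a library.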

Other observations

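Protease genes outside the 8 moved to differing degrees, with no call. *krp1*, whose product processes the P-factor precursor, had 3357 ± 398 normalized counts in *ecl123*Δ, 5840.1 ± 2544 in *ecl3*Δ and 7432 ± 256 in WT (SD, n = 3), a log2 fold change of -1.15 in *ecl123*Δ over WT (SE 0.25, edgeR adjusted p = 0.0592). *cpy1*, the vacuolar carboxypeptidase gene, had a log2 fold change of -1.07 (SE 0.25, edgeR adjusted p = 0.0739), while *yps1* and *kex1* were at -0.09 and -0.17. For *krp1* and *cpy1* the *ecl123*Δ libraries all lay below the WT libraries, and the *ecl3*Δ libraries overlapped those of WT.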
